A study of Homo sapiens with 4 samples.

Results

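The histone deacetylase (HDAC) family was followed in RNA-seq libraries of PANC-1 cells and of a clone made from them in which the histone variant H2A.Z is depleted. The members were the 10 zinc-dependent HDAC genes HDAC1, HDAC2, HDAC3 and HDAC8 (class I), HDAC4, HDAC5, HDAC7 and HDAC9 (class IIa), HDAC6 (class IIb) and HDAC11 (class IV), chosen by symbol and not by any measured value, of 15221 genes in the deposited table. They comprise 35 of its 31077 transcripts, of which 6 (4 of HDAC3, 1 of HDAC6 and 1 of HDAC11) have no symbol there and were added through their RefSeq accession. HDAC10 was not analysed here. PANC-1 is an established line from a human pancreatic ductal carcinoma and was used untransduced, labelled wild type, in 2 libraries. PZT-2, also in 2 libraries, is a single clone of PANC-1 selected with puromycin that stably carries lentiviral shRNAs, driven by the U6 promoter, against H2A.Z.1 and both H2A.Z.2 isoforms. Both lines are given as passage p12-p13 and grew in the same serum-containing medium. PANC-1 libraries with a control shRNA were not analysed here, so knockdown, transduction and selection of a clone cannot be told apart in any difference below. The labels do not say whether replicates were separate cultures, and p-values then measure only the spread between these libraries.

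HDACs remove acetyl groups from lysines of histones and other proteins. Class I enzymes are mostly nuclear, and HDAC1, HDAC2 and HDAC3 act as the catalytic subunits of corepressor complexes such as Sin3, NuRD, CoREST and NCoR. Class IIa proteins have little catalytic activity of their own, bind MEF2 transcription factors, and shuttle out of the nucleus when kinases phosphorylate them and 14-3-3 proteins hold them in the cytoplasm. HDAC6 is a cytoplasmic enzyme that deacetylates tubulin, and HDAC11 is the sole member of class IV. H2A.Z replaces canonical H2A in nucleosomes beside transcription start sites, and can itself be acetylated.

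In PZT-2, HDAC11 RNA was 2.25-fold higher and HDAC5 RNA 1.58-fold higher than in PANC-1, while HDAC6 RNA was at 0.688 and HDAC7 RNA at 0.860 of its PANC-1 level. The 4 class I genes, HDAC4 and HDAC9 did not pass the test. HDAC1, the most abundant member, stood at 0.984 of its PANC-1 level, with a 95% interval of 0.896 to 1.08. Thus 4 of the 10 members were called at an adjusted p of 0.05, 2 in each direction, against 28.4% of all 15101 genes tested (14.7% higher and 13.7% lower). Without PZT-2 replicate 1, 2 members were called (14.4% of all genes), and without PZT-2 replicate 2, 3 were (12.2%). All 10 passed the filter on low counts.

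Sequences for the members that carry these differences were taken from the reference. The HDAC5 locus yields a pair of RefSeq transcripts whose lengths in the deposited table, 5327 and 5324 bases, differ by 3. In GENCODE 29 the longer of them, NM_001015053, holds 3 additional coding bases, the first of exon 3, at chr17:44110801-44110803 of GRCh38 (minus strand). They are shown because HDAC5 counts were assigned to NM_001015053 alone in PANC-1 and to both transcripts in PZT-2. Capitals mark the bases that NM_005474 lacks, each with 15 bases on either side.
NM_001015053: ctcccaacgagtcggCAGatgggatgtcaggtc
NM_005474: ctcccaacgagtcggatgggatgtcaggtc

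Promoter windows, of 250 bases before and 50 after the start, are given from RefSeq (GRCh38.p14) for the member with the largest rise (HDAC11), the member with the largest fall (HDAC6, its outermost of 3 starts) and the most abundant member (HDAC1). Of the 10 members 9 had an entry, and HDAC5 had none. Capitals mark GC boxes (GGGCGG, either strand) and CCAAT boxes (CCAAT, either strand). These windows carried no measurement in this study.
HDAC11, chr3:13480056-13480355, plus strand: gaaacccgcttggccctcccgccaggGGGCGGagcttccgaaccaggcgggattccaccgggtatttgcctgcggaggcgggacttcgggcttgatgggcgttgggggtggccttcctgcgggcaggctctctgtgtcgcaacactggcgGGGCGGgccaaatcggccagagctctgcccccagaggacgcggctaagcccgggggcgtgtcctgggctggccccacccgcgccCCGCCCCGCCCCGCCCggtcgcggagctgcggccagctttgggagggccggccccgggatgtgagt
HDAC6, chrX:48801148-48801447, plus strand: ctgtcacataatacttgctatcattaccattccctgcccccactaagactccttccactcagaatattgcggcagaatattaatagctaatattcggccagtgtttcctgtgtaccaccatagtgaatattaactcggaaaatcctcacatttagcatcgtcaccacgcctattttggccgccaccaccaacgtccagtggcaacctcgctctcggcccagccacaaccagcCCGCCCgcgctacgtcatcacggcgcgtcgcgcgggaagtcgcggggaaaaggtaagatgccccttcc
HDAC1, chr1:32291833-32292132, plus strand: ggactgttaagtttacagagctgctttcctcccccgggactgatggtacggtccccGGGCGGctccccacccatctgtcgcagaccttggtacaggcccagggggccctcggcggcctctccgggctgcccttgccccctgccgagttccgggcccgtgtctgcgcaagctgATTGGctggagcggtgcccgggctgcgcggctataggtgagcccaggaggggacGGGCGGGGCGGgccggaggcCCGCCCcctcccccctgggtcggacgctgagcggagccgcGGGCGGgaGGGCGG

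GC boxes, the letters bound by Sp1-type factors, occurred in 45.0% of 35116 promoter windows of the same length, and CCAAT in 34.6%. HDAC11 held 5 GC boxes and 30 CpG dinucleotides, the outermost window of HDAC6 1 GC box and 21 CpG, and HDAC1 6 GC boxes, 1 CCAAT box and 28 CpG, where the median window held 14 CpG. The other HDAC6 starts had 2 and 4 GC boxes, 27 and 36 CpG and 2 CCAAT boxes each. HDAC7, which fell, had no GC box and 33 CpG. HDAC8, which did not pass the test, lay under the median with 9 CpG. No window of HDAC11, HDAC6, HDAC1 or HDAC7 held TATAAA (11.5% of windows) or CACGTG (7.26%).

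The 4 libraries held 12856687 to 15713434 estimated counts, and normalized counts below were scaled to a common library size. The targeted genes were lower in PZT-2, H2AFZ (H2A.Z.1) by a log2 fold change of -1.47 and H2AFV (H2A.Z.2) by -0.36 (adjusted p = 6.34e-05 and 0.0057). Of the 9 ductal epithelial markers, 5 were called lower in PZT-2, and their summed level went from 7478 to 7528 TPM (a level per length) in PANC-1 to 3998 to 4073 TPM. Of 4 mesenchymal markers, VIM (-0.48) and CDH2 (-1.84) were called lower. ZEB1 (0.72) and FN1 (-0.11) were not called, and ZEB1 had 0.183 and 2.86 TPM in the PANC-1 libraries. The defining markers of acinar cells (5 genes) and islet cells (4 genes) had no transcript in the table. Of 5 immune markers, CD14 (called higher, 0 to 0.278 TPM in PANC-1 and 1.36 to 2.59 TPM in PZT-2) and LYZ (up to 0.677 TPM) had any, with PTPRC and CD3E absent, and of 4 endothelial markers only PECAM1 did, at no more than 0.236 TPM. The part of the lower epithelial markers in the HDAC differences was not tested.

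Among HDAC levels per length, HDAC1 stood highest in both lines, at 249 and 235 TPM in PANC-1 and 236 and 236 TPM in PZT-2. In PANC-1 it was followed by HDAC3, HDAC7, HDAC6, HDAC2, HDAC8, HDAC4, HDAC11, HDAC9 and HDAC5. Within that order, HDAC7 (51.3 and 51.6 TPM) and HDAC6 (51.3 and 47.3 TPM) overlapped, as did HDAC11 (5.36 and 3.81 TPM) and HDAC9 (4.26 and 3.89 TPM), whereas the libraries of the other neighbours did not. In PZT-2, HDAC6 (34.1 and 35.1 TPM) stood below HDAC2 (37.4 and 36.2 TPM), and HDAC11 (10.5 and 10.0 TPM) stood above HDAC4 (6.93 and 7.36 TPM). Class I genes made up 74.7% and 75.6% of the members' summed TPM in the PANC-1 libraries and 77.5% and 77.1% in the PZT-2 libraries. HDAC6 made up 10.4% and 9.78% in PANC-1 and 7.36% and 7.44% in PZT-2. HDAC11 went from 1.09% and 0.788% to 2.26% and 2.13%.

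**Figure D1:**
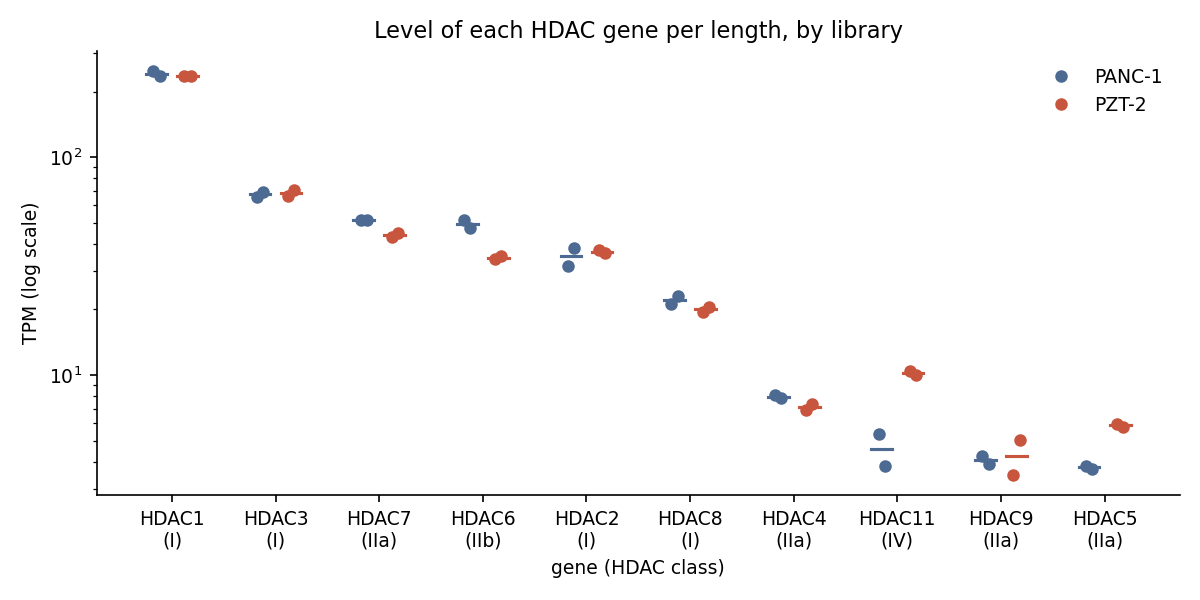
Level of each HDAC gene in TPM on a log scale (vertical axis) for the genes in order of their PANC-1 level (horizontal axis); points are single libraries, 2 per cell line, and short lines are means. HDAC1 lies above 234 TPM in all 4 libraries, and HDAC11 and HDAC5 are the members whose PZT-2 points lie above their PANC-1 points without overlap.

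Among class I genes, HDAC1 encodes a catalytic subunit shared by Sin3, NuRD and CoREST. It had 3915 and 3673 normalized counts in PANC-1 and 3731 and 3735 in PZT-2, so that both PZT-2 libraries lay between the PANC-1 libraries. Its log2 fold change, PZT-2 against PANC-1, was -0.02 (standard error 0.0563, 95% interval -0.16 to 0.11, adjusted p = 0.805). HDAC2, its close paralog in the same complexes, had 1676 and 2013 normalized counts in PANC-1 and 1990 and 1929 in PZT-2, again overlapping. The log2 fold change of HDAC2 was 0.09 (95% interval -0.14 to 0.31, adjusted p = 0.541), and without PANC-1 replicate 2, the higher library of that line, it was 0.22 and passed (adjusted p = 0.0304). HDAC3, the catalytic subunit of NCoR, had 967 and 1006 normalized counts in PANC-1 and 973 and 1041 in PZT-2, with a log2 fold change of 0.03 (95% interval -0.14 to 0.19, adjusted p = 0.800). Without its transcripts added by accession it had -0.07 (adjusted p = 0.503). HDAC8, which deacetylates the cohesin subunit SMC3, had 317 and 325 normalized counts in PANC-1 and 305 and 328 in PZT-2, the latter on both sides of the former. Its log2 fold change was -0.02 (95% interval -0.25 to 0.20, adjusted p = 0.894). In TPM, HDAC8 had 21.1 and 23.0 in PANC-1 and 19.5 and 20.6 in PZT-2. With limma on log2(TPM + 1) its log2 fold change was -0.13 (adjusted p = 0.303). In GENCODE 29, 31.5% of the 31-base words of the HDAC8 transcripts also occur in AL133500.1. Counts were assigned among RefSeq transcripts, and whether this overlap affected the HDAC8 level was not tested. For HDAC1 and HDAC2 the shared part was 5.01% and 2.01%, and among matched transcripts no member shared a word with another. Only 1 of 5 transcripts of HDAC3, 5 of 9 of HDAC6 and 1 of 2 of HDAC11 were matched.

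Class IIa genes moved in different directions. HDAC5, a repressor of MEF2 target genes, had 161 and 155 normalized counts in PANC-1 and 253 and 244 in PZT-2, with both PZT-2 libraries above both PANC-1 libraries. It rose by 0.66 on the log2 scale (standard error 0.110, 95% interval 0.39 to 0.92, adjusted p = 0.00688), from 158 ± 4.52 to 248 ± 6.06 normalized counts (SD, n = 2). Leaving out single libraries gave log2 fold changes of 0.62 to 0.68, and without PZT-2 replicate 1 the adjusted p was 0.0526. HDAC7, a class IIa repressor known from thymocytes and endothelium, had 1696 and 1698 normalized counts in PANC-1 and 1433 and 1487 in PZT-2. It fell by 0.22 on the log2 scale (standard error 0.0585, adjusted p = 0.0352), the smallest called difference of the family. Its call was lost without PZT-2 replicate 1 (adjusted p = 0.222), without PZT-2 replicate 2 (0.149) and with DESeq2 (0.0596). HDAC4, another MEF2 repressor, had 582 and 558 normalized counts in PANC-1 and 500 and 533 in PZT-2. Its libraries did not overlap, but the log2 fold change of -0.14 (95% interval -0.33 to 0.05) did not pass (adjusted p = 0.242). With HDAC4, 5 members had libraries that did not overlap, against 66.3% of all genes. HDAC9, the least steady member, had 151 and 137 normalized counts in PANC-1 and 123 and 183 in PZT-2, with a log2 fold change of 0.09 and an interval of -0.40 to 0.58 (adjusted p = 0.792). At this depth a change of HDAC9 by up to 1.49-fold upward or to 0.756 of its PANC-1 level lay within the interval.

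HDAC6, the tubulin deacetylase, had 1659 and 1468 normalized counts in PANC-1 and 1070 and 1079 in PZT-2, and the higher PZT-2 library lay well under the lower PANC-1 library. It fell by 0.54 on the log2 scale (standard error 0.0766, 95% interval -0.72 to -0.35, adjusted p = 0.00387). Left-out libraries moved the log2 fold change between -0.63 and -0.45, and it was called each time. HDAC11, which removes longer fatty acyl groups as well as acetyl groups, had 120 and 84.1 normalized counts in PANC-1 and 234 and 223 in PZT-2. It rose by 1.17 on the log2 scale (standard error 0.180, 95% interval 0.74 to 1.61, adjusted p = 0.00505), and its absolute log2 fold change stood at percentile 93.2 of all genes tested. When single libraries were left out it ran from 0.92 to 1.44, called each time, and without the transcript added by accession HDAC11 had 0.97 (adjusted p = 0.0323). Because the libraries are bulk RNA, fewer cells with a transcript and less of it per cell cannot be told apart.

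**Figure D2:**
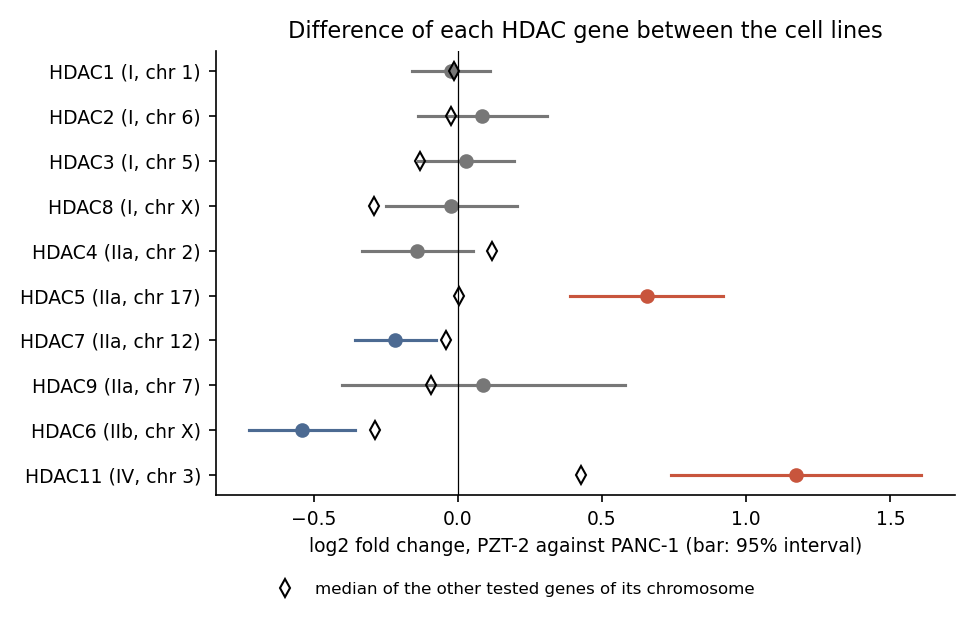
Log2 fold change of each member, PZT-2 against PANC-1 (horizontal axis; points, with the 95% interval as a bar), by gene with its class and chromosome (vertical axis); red marks genes called higher, blue called lower, grey not called. Open diamonds are the median log2 fold change of the other tested genes of the same chromosome, at 0.43 for HDAC11 and -0.29 for HDAC6.

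The chromosomes of the called members differed in how their other genes behaved. HDAC11 lies on chromosome 3, where 832 other tested genes had a median log2 fold change of 0.43, 48.2% of them called higher and 2.52% lower, while the median over all genes was 0.000909. Among the 20 tested genes nearest to HDAC11, 10 on each side, the median was 0.50, with 10 called higher and 2 lower. HDAC11 stood 0.75 above the median of its chromosome on the log2 scale. HDAC6 lies on the X chromosome, where 470 other tested genes had a median of -0.29, with 36.2% called lower and 6.38% higher. HDAC6 stood 0.25 below that median, and its 20 nearest genes had a median of 0.00999, with 6 called lower and 2 higher. HDAC8, also on the X chromosome, lay among genes of which 10 of 20 were called lower (median -0.47), but itself stood at -0.02. Around HDAC5 on chromosome 17 and HDAC7 on chromosome 12 the medians of the 20 nearest genes were 0.09 and 0.00471, with 2 and 5 called higher and 1 and 4 lower. The part of these shifts along chromosomes 3 and X in the HDAC11 and HDAC6 differences was not tested.

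The split of counts between transcripts of a member was less certain than its sum. Of the members' 35 transcripts 33 were tested, 3 had an unadjusted p below 0.05 and 0 were called in edgeR, against 0.148% of all 30403 transcripts called and 18.5% below that unadjusted p. DESeq2 called 2 of the members' transcripts, NM_005474 of HDAC5 and NM_001355040 of HDAC3, against 14.8% of all transcripts.

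For HDAC5, the counts of PANC-1 were assigned to NM_001015053 alone, with 161 and 155 normalized counts, and those of NM_005474 were 0 and 0. In PZT-2, NM_001015053 had 125 and 69.2 normalized counts and NM_005474 had 128 and 175, or 50.6% and 71.7% of the gene. Against a floor of 3 counts per library, 49.7-fold more normalized counts were assigned to NM_005474 in PZT-2. This is no lower bound, since error in dividing reads between the pair is left out. Among transcripts the adjusted p of NM_005474 was 0.0749 in edgeR and 1.44e-08 with DESeq2. The GENCODE 29 model matched to NM_005474 has 3662 bases, fewer than the 5324 of the deposited table, so the number of bases that told this pair apart in the counts was not determined. Taken alone, NM_001015053, the more abundant transcript over all libraries, was lower by a log2 value of -0.70 that did not pass (adjusted p = 0.211), opposite in sign to the sum over the gene.

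For HDAC11, NM_024827 had 119 and 73.2 normalized counts in PANC-1 and 197 and 175 in PZT-2. The other transcript, NM_001330636, had 1.13 and 10.8 in PANC-1 and 36.2 and 48.4 in PZT-2, and its share of the gene went from 0.935% and 12.9% to 15.5% and 21.7%. Both transcripts were higher in both PZT-2 libraries, and neither passed among transcripts (adjusted p = 0.262 and 0.370).

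HDAC6 counts were spread over 9 transcripts, and this spread differed between replicates of a line. NM_001321229 had 796 and 103 normalized counts in the PANC-1 libraries and 98.7 and 290 in the PZT-2 libraries. NM_001321228 had 164 and 486 in PANC-1 and 168 and 232 in PZT-2. No HDAC6 transcript had an unadjusted p below 0.05, whereas the sum over the gene was called. For HDAC7, NM_001098416 had 995 and 1222 normalized counts in PANC-1 and 950 and 1122 in PZT-2, so these libraries overlapped. NM_001308090 of HDAC7 had 664 and 460 in PANC-1 and 482 and 347 in PZT-2, and the libraries overlapped here too. HDAC8 kept near 58.5% and 55.0% (PANC-1) and 63.0% and 54.8% (PZT-2) of its counts in NM_018486, and HDAC1 and HDAC4 had 1 transcript each.

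The subunits and regulators that work with HDACs were described as lists of their RNA levels. The lists also held sirtuins, histone acetyltransferases, readers of acetyl-lysine and genes that HDAC inhibitors raise. Together these are called partner genes here. Of 115 such genes 113 were tested, 18 were called higher and 22 lower (35.4%, against 28.4% of all genes), and their median log2 fold change was 0.02. Without PZT-2 replicate 1 these counts were 8 and 6 (12.4%, against 14.4% of all genes), and without PZT-2 replicate 2 they were 7 and 4 (9.73%, against 12.2%), so the share of the lists was above that of all genes with all 4 libraries and below it without either PZT-2 library.

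Among complexes built on HDAC1 and HDAC2, Sin3 and NuRD held called genes in both directions, whereas CoREST held only higher ones. Of 16 Sin3 genes, 4 were called higher and 2 lower, with a median of 0.12. FAM60A, a Sin3 subunit, rose from 777 ± 34.3 to 1242 ± 107 normalized counts (SD, n = 2; log2 fold change 0.68, adjusted p = 0.00230). ING1, a reader of methylated histone H3, had 0.57 and SIN3B, a scaffold, 0.36, whereas ING2 had -0.80 and ARID4B -0.44. Of 11 NuRD genes 3 were called higher and 2 lower, with a median of 0.13. The remodelling ATPase CHD4 rose by 0.50 (adjusted p = 0.00366), with MTA1 at 0.30 and MTA3 at 0.26. MBD3, the methyl-CpG-binding-domain subunit, fell from 2721 ± 24.8 to 1855 ± 77.1 normalized counts (SD, n = 2; log2 fold change -0.55, adjusted p = 0.00146), and CDK2AP1 had -0.30. Of 9 CoREST genes 2 were called higher and 0 lower with edgeR, among them HMG20B (0.48), with a median of 0.14. Of 6 genes of the MiDAC and MIER complexes 1 was called in each direction, DNTTIP1 (0.46) and MIER3 (-0.46), with a median of -0.04.

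The NCoR complex, the partner of HDAC3, had 3 of 5 genes called lower and 0 higher, against 13.7% of all genes called lower. Its median was -0.25, and all 5 genes had PZT-2 libraries below both PANC-1 libraries (33.0% of all genes). GPS2 fell by 0.35 (adjusted p = 0.00826) and NCOR1 by 0.27 (adjusted p = 0.0464) on the log2 scale, while HDAC3 itself did not pass. Cohesin and its regulators, which include the HDAC8 substrate SMC3, had 5 of 11 genes called lower and 0 higher. Their median was -0.25, and 13.7% of all genes were called lower. STAG2, which lies on the X chromosome, had -0.65, the loader NIPBL -0.63 and SMC3 -0.59 (adjusted p = 0.0113, 0.0287 and 0.0144). The PZT-2 libraries differed here, with 519 and 398 normalized counts for STAG2, 332 and 234 for NIPBL and 531 and 434 for SMC3. In PANC-1 these genes had 714 and 726, 434 and 442, and 671 and 780.

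For class IIa HDACs, 2 of 4 MEF2 genes were called higher and 0 lower, with a median of 0.76. Of all genes, 14.7% were called higher and 13.7% lower. MEF2A rose from 491 ± 63.8 to 868 ± 57.1 normalized counts (SD, n = 2; log2 fold change 0.83, adjusted p = 0.00274) and MEF2D from 525 ± 108 to 841 ± 50.5 (SD, n = 2; 0.69, adjusted p = 0.0127). MEF2B had 0.85 and MEF2C 0.24, and neither passed (adjusted p = 0.198 and 0.427). Of 10 kinases that phosphorylate class IIa proteins, 9 were tested, 2 were called higher and 0 lower, with a median of 0.24. CAMK2G rose by 0.63 (adjusted p = 0.00187), and CAMK1, which lies on chromosome 3, rose by 0.90 (adjusted p = 0.0124). Among the 7 genes of 14-3-3 proteins, YWHAG (0.23) and YWHAQ (0.19) were called higher, and SFN (-0.28), YWHAZ (-0.23) and YWHAE (-0.22) lower, with a median of -0.00729. Of 9 HDAC6 substrates and partners, 1 was called higher, CTTN (cortactin, an actin-binding substrate, 0.38), and 1 lower, the alpha-tubulin gene TUBA1B (-0.26), with a median of 0.05.

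**Figure D3:**
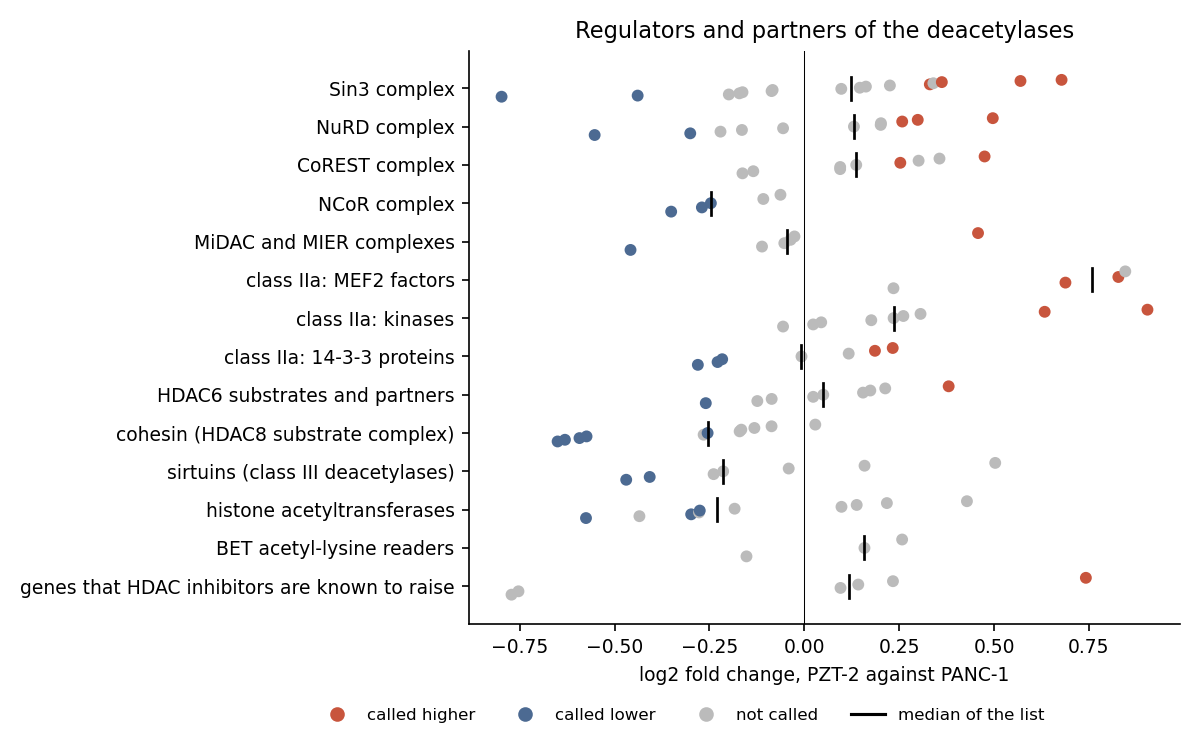
Log2 fold change, PZT-2 against PANC-1 (horizontal axis), of each tested gene in 14 lists of HDAC partners and other acetylation genes (rows), with red called higher, blue called lower and grey not called; black ticks are list medians. The MEF2 list has its median at 0.76, and the called genes of the NCoR and cohesin lists all lie to the left of 0.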

How the data were processed

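TruSeq Stranded mRNA libraries of PANC-1 and PZT-2, 2 each, were re-analysed. The authors trimmed reads (Trim Galore 0.4.1), quantified RefSeq transcripts (kallisto 0.43.0) and tested them (sleuth 0.29.0). The labels name hg19, and coordinates here are GRCh38. Deposited estimated counts carried a factor per library (0.935 to 1.16), and undoing it left 49.3 to 50.1% of low values whole within 0.01, where the deposited values gave 0.635 to 2.71%. These counts were rounded and summed per gene, without unnamed transcripts (0.0466% of counts). Deposited TPM values served as levels, without rescaling. Over all genes tested they summed to 975165 to 999476 in PANC-1 and 939914 to 943113 in PZT-2. TPM values set side by side between the lines carry this offset. The authors' sleuth effects and p-values were not used.

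Genes with at least 5 counts in 2 libraries were tested with edgeR 4.0.16 (quasi-likelihood, TMM, Benjamini-Hochberg over all genes, threshold 0.05; R 4.3.3), with DESeq2 1.42.0 and limma 3.58.1 as alternatives. The code was tested on simulated data. No exact permutation test of 2 against 2 can go below 0.333. Over transcripts, the variance between replicates was 13.7 (PANC-1) and 11.5 (PZT-2) times that of counting alone. The members and lists were chosen with earlier results of these data known. Named are all members, H2AFZ and H2AFV, up to 3 called genes of each list and direction by size (mean normalized count at least 50; some list genes are not reported here), and transcripts with at least 10% of a member. NM_001355040, uncalled list genes and the other markers were named after their values were seen.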

Additional observations from a re-analysis of the deposited data

How the results depend on the processing

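HDAC6 and HDAC11 kept their direction and call in 15 of 16 alternatives each, and HDAC5 in 14, while HDAC7 kept its call in 11 and its direction in all 16. With the most abundant transcript of each gene alone 0 members were called in either direction, HDAC5 turned to -0.70 (adjusted p = 0.211), HDAC6 had -1.20 (0.497), HDAC7 -0.10 (0.675) and HDAC11 0.96 (0.0908), and 1135 genes were called higher and 1000 lower. Fewer transcripts enter there, so the counts of 2216 and 2067 are not over the same sums. Members called lower numbered 1 with DESeq2 and 1 with the replicate block, where HDAC7 was lost (adjusted p = 0.0596 and 0.0620). DESeq2 called 2 member transcripts. When single libraries were left out, the lone library of a line being assumed to vary like the other pair, 1 to 3 members were called higher and 1 to 2 lower, 1008 to 2386 genes higher and 833 to 2163 lower, and 7 to 25 partner genes higher and 4 to 24 lower. The lowest of these came without a PZT-2 library. The replicate numbers mark no shared culture or day in the labels, and replicate deviations of the lines correlated by -0.0202 over genes. This correlation cannot exclude a small shared batch or one common to all libraries. The block left 1979 genes called higher and 1758 lower. With transcripts that have a symbol in the table alone, an alternative chosen after seeing the data, 2 members were called higher and 2 lower. With 2 libraries per line and 84.1 to 253 normalized counts, HDAC5, HDAC9 and HDAC11 are the least precisely measured members.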

Other observations

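The genes that write, read and otherwise remove acetyl groups were summarised in the same way. Of 7 sirtuins, the NAD-dependent class III deacetylases, 2 were called lower in PZT-2 and 0 higher with edgeR (28.6%, near the 28.4% of all genes), with a median log2 fold change of -0.21. SIRT2, a tubulin deacetylase like HDAC6, fell from 2870 ± 230 to 2072 ± 108 normalized counts (SD, n = 2; log2 fold change -0.47, adjusted p = 0.00616), and SIRT1 from 685 ± 9.0 to 517 ± 5.96 (SD, n = 2; -0.41, adjusted p = 0.00818). Of 10 histone acetyltransferases 3 were called lower and 0 higher (30.0%), with a median of -0.23. KAT5, the catalytic subunit of the TIP60 complex that acetylates H2A.Z, fell from 1231 ± 120 to 825 ± 90.1 normalized counts (SD, n = 2; log2 fold change -0.58, adjusted p = 0.00859). CREBBP had -0.30 and KAT7 -0.28 (adjusted p = 0.0161 and 0.0223).

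Of the BET readers of acetyl-lysine, 3 of 4 were tested and 0 were called with edgeR, with log2 fold changes of 0.16 for BRD2 and 0.26 for BRD3. Of 6 genes that HDAC inhibitors are known to raise, 1 was called higher and 0 lower (16.7%), with a median of 0.12. CDKN1A, the cyclin-dependent kinase inhibitor p21, rose from 935 ± 205 to 1557 ± 210 normalized counts (SD, n = 2; log2 fold change 0.74, adjusted p = 0.0154). CDKN1C had -0.77 and TXNIP -0.75, and neither passed (adjusted p = 0.128 and 0.0709).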
